A study of Mus musculus with 8 samples.

Results

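The barcodes described here carried the transcripts of pro-B cells, the stage of B lymphocyte development in which the heavy chain gene is assembled, and came from the tibiae of adult mice. A barcode was counted as a member when it held at least 1000 genes, at most 20% mitochondrial unique molecular identifiers (UMIs, each standing for 1 captured transcript), at least 5 UMIs of Vpreb1 and Igll1 together, at least 1 of Dntt and at least 1 of Cd79a, and fewer than 100 S100a8 UMIs per 10000. This left 144 barcodes, or 1.80% of the 7989 that passed the gene and mitochondrial limits (95% interval 1.52% to 2.12%), out of 12564 deposited. The members were chosen by these transcripts, so the levels of Dntt, Vpreb1, Igll1, Cd79a and S100a8 are descriptions of the choice and not findings.

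The study asked how the protease Mmp14 and the parathyroid hormone receptor Pth1r act in bone-forming cells that descend from growth plate chondrocytes. Cells of 3 untreated mice aged 8 weeks (P56) were released from tibial trabecular bone and growth plate by serial digestion, pooled and sequenced on the 10x platform. All 8 labelled samples shared the alleles MMP14 F/+, which leaves 1 floxed copy of Mmp14, and COL10A1cre, a Cre that acts in hypertrophic chondrocytes. They also shared the tdTomato reporter R26-tdT and, for osteoblasts, the reporter Col1a1-2.3-GFP, so none of these alleles was aimed at B cells. Most of the blood was discarded with the first digests, so the number of pro-B barcodes is not their number in the marrow. The 8 samples formed 1 group and their barcodes were deposited in 1 matrix with nothing to tell the mice apart. The pool counts as 1 sample, so there is no replicate check, no test was run, and every interval below is a 95% interval of counting error only, too narrow for variation between cells or mice. The matrix held 91463572 UMIs, with between 500 and 103543 per barcode and a median of 5417.

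Early B cells switch on Ebf1 and Pax5, the transcription factors that commit a progenitor to the B lineage, and then cut and join the V, D and J segments of the heavy chain gene. The cut is made by Rag1 and Rag2, and terminal transferase, the product of Dntt, adds bases that no template encodes at the joint. A finished heavy chain is held at the surface by the surrogate light chain, made of VpreB and lambda5 (Igll1), which with the mu chain and the Cd79a and Cd79b chains forms the pre-B receptor. Signals from this receptor and from the interleukin-7 receptor drive division. Dntt and the surrogate light chain are switched off, and the kappa and lambda light chain genes are rearranged after division.

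The label names the cells chondro-osteogenic, and the 144 barcodes did not carry that programme. Of 8 skeletal markers, Lepr had no UMI in them, and the 8 together took a median of 0.00451% of a member's UMIs. A single member held more than 1% of skeletal marker UMIs, 4.12%, and 542 of the 730 UMIs of Sparc, the bone matrix protein osteonectin, came from 1 barcode. B lineage genes were present throughout. Ebf1 was seen in all 144 members and Cd79b, the partner of Cd79a, in 143. Both Ebf1 and Pax5 had a UMI in 119 members (82.6%, 75.4% to 88.4%) but in 0.369% of 2166 barcodes of neutrophil type (at least 100 S100a8 UMIs per 10000 and no Cd79a), at median depths of 7839.5 and 7214 UMIs. The neutrophil barcodes are used below as the measure of free RNA for B lineage transcripts, which they should lack. For Erg and Kit, genes that progenitors also carry, their share is given for comparison only and is no measure of free RNA.

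Markers of other blood cells varied from list to list. The 12 neutrophil markers summed to 691 UMIs per 1000000 UMIs (CPM) in the members and to 231053 in the neutrophil type. No member held a UMI of Cd3d, Cd3e, Cd3g or Trac, the T cell receptor complex, and 0 of 144 allows a share with a UMI of up to 2.08% (3 of 144). The 10 monocyte and macrophage markers summed to 69.1 CPM, with C1qa, C1qb and C1qc at 0, against 1122 in the neutrophil type. The 8 stem and progenitor markers summed to 92.1 CPM, Kit among them, against 61.3 in the other B barcodes described below. The 6 plasma cell markers summed to 665 against 1875 CPM, with Tnfrsf17 at 0, and the 7 plasmacytoid dendritic cell markers to 578 against 216 CPM, of which Tcf4 gave 484. Haemoglobin and other erythroid markers took a median of 0.183% of a member's UMIs but more than 5% in 5 members and 62.4% in 1. Doublet calling marked 3 of the 144, and they were kept.

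The thresholds cut through continuous ranges of counts. A member held between 1 and 32 Dntt UMIs with a median of 4, and 22 members held exactly 1 and another 22 exactly 2. Just outside, 150 barcodes met every other condition with no Dntt UMI. A member held between 5 and 60 UMIs of Vpreb1 and Igll1, with a median of 21. Of the members, 12 held 5 to 9 of these, while 9 barcodes were left out at 1 to 4 and 19 at 0. Cd79a stood at 1 UMI in 4 members and kept out 1 barcode, and the S100a8 limit kept out 9. The member nearest to that limit held 58.0 S100a8 UMIs per 10000 and the next 18.1.

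All members had Vpreb1, with between 3 and 45 UMIs, and 143 had Igll1, with up to 24. Vpreb2, a near copy of Vpreb1 that the rule did not name, was seen in 79.9% of members, with up to 13 UMIs. All 3 genes lie on chromosome 16 (GRCm38), with Igll1 close to Vpreb1 and Vpreb2 apart from both. Igll1 is at chr16:16860671-16863985 and Vpreb1 at chr16:16868403-16870843 on the minus strand, and Vpreb2 is at chr16:17980428-17981273 on the plus strand. The RefSeq promoters of the 3 genes (GRCm38.p6) are shown because Vpreb1 and Igll1 served to choose these cells, and because the likeness of Vpreb1 and Vpreb2 bears on their counts. Each is the 250 bases before the RefSeq start, 5′ to 3′ on the strand of the gene. Capitals mark CACCTG, an E-box that E proteins such as the product of Tcf3 bind, or its reverse complement, and CCCNNGGG, the core that Ebf1 binds.

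Vpreb1: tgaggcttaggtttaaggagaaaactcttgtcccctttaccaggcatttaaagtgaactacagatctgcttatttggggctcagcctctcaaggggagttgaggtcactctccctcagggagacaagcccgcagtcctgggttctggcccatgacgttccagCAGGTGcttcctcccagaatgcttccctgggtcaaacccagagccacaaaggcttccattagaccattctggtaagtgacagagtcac

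Vpreb2: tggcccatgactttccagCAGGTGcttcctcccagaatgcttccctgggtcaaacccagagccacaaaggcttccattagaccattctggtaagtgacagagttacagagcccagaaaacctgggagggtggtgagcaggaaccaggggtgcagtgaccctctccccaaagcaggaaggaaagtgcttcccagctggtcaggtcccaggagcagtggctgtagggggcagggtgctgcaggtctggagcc

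Igll1: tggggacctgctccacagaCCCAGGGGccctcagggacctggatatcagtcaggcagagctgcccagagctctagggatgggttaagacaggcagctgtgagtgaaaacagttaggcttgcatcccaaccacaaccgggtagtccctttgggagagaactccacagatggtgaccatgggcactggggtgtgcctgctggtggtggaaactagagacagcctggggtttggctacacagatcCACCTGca

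The first lies at chr16:16869256-16869505, the second at chr16:17980315-17980564 and the third at chr16:16863986-16864235. The gene spans given above are those of another annotation, GENCODE M21. On these spans the first window lies inside Vpreb1 and the second reaches into Vpreb2, while the third adjoins Igll1. The distances below, and the shift between the windows, therefore hold for the RefSeq starts only. The E-box stands 88 bases before the start of Vpreb1, 232 before that of Vpreb2 and 8 before that of Igll1, and the Ebf1 core 231 before that of Igll1. Searched on both strands from 250 bases before to 50 after the start, CACCTG was found in 20.2% of 32851 RefSeq promoters and CCCNNGGG in 13.7%. In the window of Dntt, whose upstream bases lie at chr19:41029025-41029274, neither was found. A match of letters is a description and not a binding site. The Vpreb1 and Vpreb2 windows were the same at 153 of 156 aligned bases (98.1%), shifted by 144 bases, so the E-box of both lies in 1 copied stretch. Their transcripts were 97.4% identical, and 15.8% of the 90-base stretches of Vpreb1 occur unaltered in Vpreb2, so reads of the pair may have been split or dropped and the Vpreb2 count is uncertain.

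The members were compared with 2295 other B barcodes, which passed the same limits with at least 3 Cd79a UMIs and no Dntt UMI. They were 28.7% of the 7989. These were shallower, with a median of 3325 UMIs and 1359 genes against 2455 genes in the members. They were a mixture, and 3 groups within them are used below. A group of 146 met the members' cut of at least 5 UMIs of Vpreb1 and Igll1 and is called the Dntt 0 surrogate light chain group. It was deeper, with a median of 18070 UMIs, so the same cut is a smaller share of its UMIs. Dntt, Vpreb1, Igll1 and Vpreb2 together were at 1032 CPM in it, with Dntt at 0 by choice, and at 3257 in the members. A group of 314, which had both Ms4a1 (the antigen CD20) and Ighd, markers of mature B cells, is called the mature group, and 1837 barcodes were in neither. Levels are UMIs summed over a group and divided by all UMIs of that group (CPM), and differences are log2 ratios of these levels. A gene entered a comparison when its UMIs over both groups came to 50 or more. A gene is called higher or lower when the ratio is at least 2-fold. In bulk sums such as these, fewer cells with a transcript and less transcript per cell cannot be told apart without the shares of barcodes, which are given where they bear on a result.

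Of 9936 genes, 583 (5.87%) were at least 2-fold higher and 916 (9.22%) at least 2-fold lower in pro-B than in other B barcodes. The median log2 ratio of all genes was 0.09, and −0.08 with TMM factors, so ratios are best read against those values. Markers of other cells moved with this comparison. In pro-B against other B barcodes the neutrophil markers summed to 691 against 1493 CPM (5 of 11 lower), the monocyte and macrophage markers to 69.1 against 205 (6 of 9), the erythroid markers to 16669 against 44952 (5 of 8) and the skeletal markers to 982 against 2451 (5 of 7), and 0 were higher on these lists. Their part in the ratios below was not tested. Of the genes called, 38.9% were higher, a split that fell to 26.4% with TMM factors and rose to 50.8% when each barcode weighed the same.

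**Figure D1:**
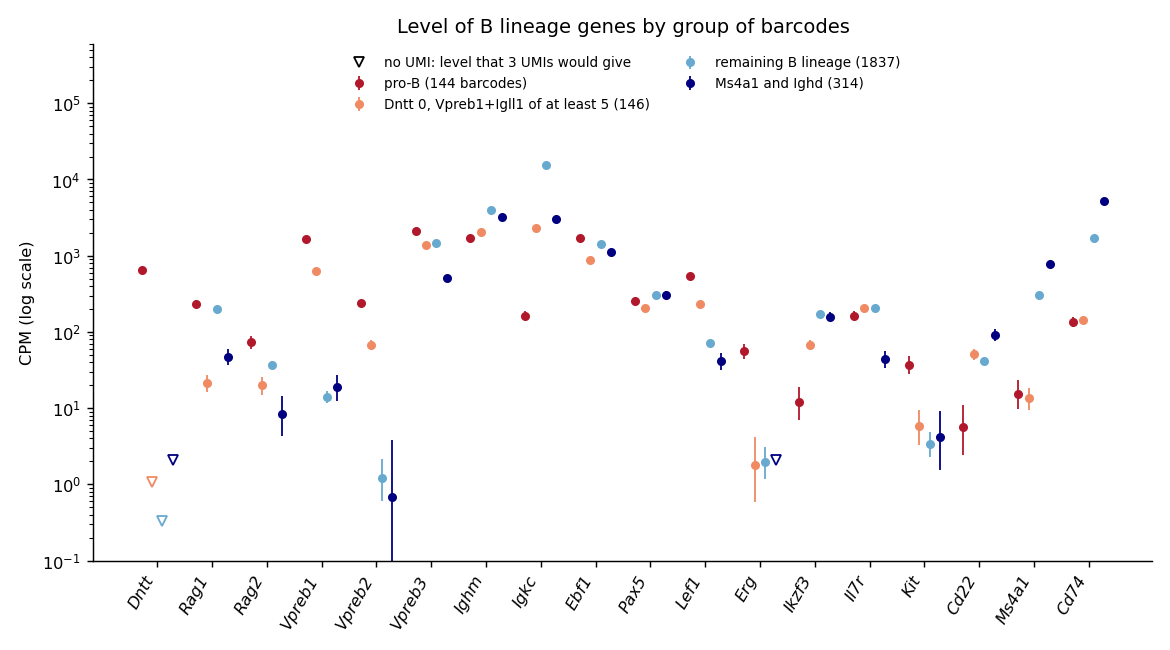
Levels of 18 B lineage genes (CPM, log axis) in pro-B barcodes and in the 3 groups of other B barcodes. Points are summed levels with 95% counting intervals, open triangles mark genes without a UMI at the level of 3 UMIs. Igkc was at 164 CPM in pro-B barcodes and at 2319 or more in each other group, while Erg was at 55.8 and below 3 in the others.

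Light chain transcripts were scarce in pro-B barcodes, and the mu chain was at a lower level than in other B barcodes. Of 9 genes of the pre-B receptor and light chain list that the rule did not use, 1 was higher (background 5.87%) and 6 were lower (background 9.22%), with a median log2 ratio of −1.62. Vpreb2 stood at 238 CPM (213 to 265) against 14.9, a log2 ratio of 3.99 (3.74 to 4.25). It shares its sequence with a gene of the rule and is not independent of it. Vpreb3, which assists assembly of the receptor, was seen in every member at 2130 CPM against 1341, or 0.67 (0.61 to 0.72), under 2-fold. Ighm, the mu heavy chain, was at 1699 CPM against 3517, a log2 ratio of −1.05 (−1.11 to −0.99). It stood at −0.69 when the gene floor was raised to 1600.

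Igkc, the kappa constant region, had the lowest ratio among genes with a UMI in at least 25% of the barcodes of the group with the higher level. It was at 164 CPM (144 to 186) in pro-B and at 11460 in other B barcodes, a log2 ratio of −6.13 (−6.32 to −5.94). Much of that distance came from few barcodes. Without the 17 other B barcodes that held at least 10 UMIs of Jchain, the joining chain that plasma cells express, the ratio was −3.77, and it was −4.92 when each barcode weighed the same. An Igkc UMI was seen in 50 members (34.7%) against 93.4% of other B and 22.7% of neutrophil barcodes. At an equal depth of 2000 UMIs the shares were 17.5%, 87.7% and 7.92%. Only 9 members held at least 10 Igkc UMIs, with a highest value of 32, against 55.7% of other B barcodes. Iglc1, Iglc2 and Iglc3, the lambda constant regions, stood between 7.67 and 13.3 CPM in pro-B barcodes, with log2 ratios of −6.11, −4.95 and −4.94. For Iglc1 the ratio was −4.76 without the Jchain barcodes, and for Iglc2 −3.75 at the gene floor of 1600. UMIs of light chain V or J segments were found in 7 members (4.86%, 1.98% to 9.76%) and in 19.3% of other B barcodes. Heavy chain segments were found in 15 members (10.4%, 5.95% to 16.6%) and in 12.2% of other B barcodes, intervals that overlap at unequal depth. As summed levels these segments were at 10.5 against 46.2 CPM, on 15 against 616 UMIs.

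Both recombinase genes were widely present. Rag1 was at 235 CPM (211 to 262) and had a UMI in 75.7% of members, against 145 CPM and 33.7% in other B barcodes and 0.693% of neutrophil barcodes. At equal depth the shares were 42.0% in pro-B and 24.8% in other B barcodes. Its log2 ratio of 0.69 (0.52 to 0.86) was under 2-fold. Rag2 was at 73.2 CPM against 30.2, a log2 ratio of 1.28 (0.95 to 1.59). At least 1 of Rag1 and Rag2 was seen in 120 members (83.3%, 76.2% to 89.0%) and both in 54 (37.5%, 29.6% to 45.9%), against 39.7% and 7.89% of other B barcodes.

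Of 13 recombination and end joining genes, 2 were higher and 1 was lower, with a median of −0.05, against backgrounds of 5.87% and 9.22%. The second that was higher, Xrcc5, the Ku80 subunit that binds broken ends, rested on 32 UMIs and was no longer 2-fold with TMM factors, at the gene floor of 1600, with at least 2 Dntt UMIs required or when each barcode weighed the same. Dclre1c, the Artemis nuclease that opens the hairpins at coding ends, was lower at 11.9 against 25.2 CPM, but no longer 2-fold at the gene floor of 1600, with at least 2 Dntt UMIs required or with S100a8 under 10 per 10000. Hmgb1, a DNA-bending partner of the recombinase, was abundant at 3533 CPM against 2197 (log2 ratio 0.69). Xrcc6 (Ku70) and Lig4, the ligase of the end joining pathway, had ratios of −0.19 (−0.41 to 0.01) and −0.16 (−0.66 to 0.30), so that a difference was not detectable at this depth.

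Among 27 transcription factors of the B lineage, 3 were higher and 9 lower, with a median of −0.28. Both shares were above the backgrounds of 5.87% and 9.22%. The commitment factors differed little. Ebf1 was at 1720 CPM against 1267 (0.44, 0.38 to 0.50) and Pax5 at 257 against 284 (−0.14, −0.30 to 0.01). Tcf3, which encodes the E2A proteins, was at 279 against 235.

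Lef1 and Erg stood out from these. Lef1, the Wnt pathway factor of early lymphocytes, was at 536 CPM (499 to 576) against 102 and was seen in 99.3% of members against 26.5% of other B barcodes, a log2 ratio of 2.39 (2.26 to 2.52). Erg, an ETS factor of progenitor cells, was at 55.8 CPM (44.3 to 69.5) against 1.72, or 5.02 (4.33 to 5.75). It had a UMI in 61 members (42.4%), in 0.741% of other B barcodes and in 6.88% of neutrophil barcodes, and in 16.6%, 0.326% and 1.44% at equal depth. Etv6, another ETS factor, was at 39.1 against 14.7 (1.41).

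Among the 9 that were lower was Ikzf3 (Aiolos), a factor of the pre-B to mature stages, at 11.9 CPM against 147, a log2 ratio of −3.63 (−4.42 to −2.95). Spib and Irf4, which act in light chain recombination and in activated B cells, had ratios of −2.12 and −1.42. Spi1 (PU.1) had −1.78, Myc −2.07, Id2, an inhibitor of E proteins, −1.98 and Bach2 −1.06, the last no longer 2-fold at the gene floor of 1600. Tcf4, an E protein that the list of plasmacytoid dendritic cells also holds, was at 484 CPM against 144 (1.74, 1.62 to 1.87) and was seen in 94.4% of members. Siglech, which marks those cells, had 5 UMIs in 2 members.

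The growth factor receptors of progenitors were seen in a minority of the members. Of 17 cytokine receptor and signalling genes, 4 were higher and 3 lower, with a median of −0.20 (backgrounds 5.87% and 9.22%). Kit, the receptor for stem cell factor, was at 37.0 CPM (27.7 to 48.4) against 3.97, a log2 ratio of 3.22 (2.64 to 3.79). It had a UMI in 37 members (25.7%), in 1.74% of other B barcodes and in 9.42% of neutrophil barcodes. Flt3, a receptor of earlier progenitors, rested on 12 UMIs in 9 members. Il7r, the interleukin-7 receptor chain, was at 163 CPM against 186 (−0.19, −0.39 to 0.00). Socs2, a feedback inhibitor of cytokine signals, was at 93.5 against 30.7 (1.61, 1.32 to 1.89).

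Several genes of B receptor signalling were at lower levels. Of 18 on the list, 0 were higher and 9 lower, with a median of −1.0 (backgrounds 5.87% and 9.22%). The inhibitory receptors Cd22, Cd72 and Fcgr2b were at 5.58, 73.2 and 5.58 CPM, with ratios of −3.13, −2.16 and −2.33. Ptpn6, the phosphatase they recruit, had −1.85, and the kinases Blk and Lyn had −1.82 and −1.37, the latter no longer 2-fold at the gene floor of 1600. Blnk, the adaptor downstream of the pre-B receptor, was at 403 against 321 CPM (0.33). Btk, a kinase of the same pathway, had a ratio of −0.02 (−0.38 to 0.32). Cr2, a complement receptor of mature B cells, had no UMI. Set against a floor of 3 UMIs it was at least 2.33-fold lower than in other B barcodes, but not 2-fold lower at the gene floor of 1600 or with at least 2 Dntt UMIs required.

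Surface antigens by which early B stages are sorted followed several patterns. Of 14, 3 were higher and 5 lower, with a median of 0.08 (backgrounds 5.87% and 9.22%). Spn (CD43) was at 72.5 CPM against 25.9 (1.49), Bst1 (BP-3) at 56.5 against 13.2 (2.10) and Enpep (BP-1) at 19.5 against 6.00 (1.70). Cd24a, the heat stable antigen, was at 655 against 698. Lower were Ly6d at 155 against 911 (−2.56), Cd2 at 20.2 against 148 (−2.87), Cd38 (−2.28), Sdc1 (−1.91) and Ptprc, the CD45 antigen (−1.30). Spn and Ptprc were no longer 2-fold at the gene floor of 1600. Against the Dntt 0 surrogate light chain group, 3 of 12 were higher and 1 lower (backgrounds 8.02% and 2.03%). Ly6d was higher there (1.31), and Cd2 (0.08), Enpep (0.11) and Spn (0.78) were under 2-fold.

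Of 13 homing genes, 1 was higher and 6 lower, with a median of −0.69. The higher share was near the background of 5.87% and the lower share above that of 9.22%. S1pr4, a sphingosine phosphate receptor, was at 123 CPM against 57.0 (1.12), and was no longer 2-fold with TMM factors. Ccr7 and Cxcr5, which guide B cells within lymphoid organs, had ratios of −3.43 and −2.71. Gpr183, which places B cells at the follicle edge, had no UMI and was at least 5.98-fold lower. Cxcr4, which holds precursors in the marrow, was at 163 against 261 (−0.69). Itga4, the integrin chain that binds VCAM-1, was at 284 against 153 (0.89), under 2-fold.

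Genes of mature B cells and antigen presentation were low as a group. Of 19, 0 were higher and 16 lower against a background of 9.22%, with a median of −2.41. Ms4a1 was at 15.3 CPM against 296 (−4.27), Fcmr, the receptor for IgM, at 4.88 against 125 (−4.67), and Cd83, an activation marker, at 15.3 against 171 (−3.47). Cd74, the invariant chain, was at 136 against 1769 (−3.70). Single barcodes weighed heavily in the class II genes. For each gene, the barcode with the most of its UMIs held 52.8% of the Cd74, 75.8% of the H2-Aa, 72.7% of the H2-Eb1 and 37.4% of the H2-Ab1 UMIs of all members, but 15.4% of those of H2-DMa. Ltb, which encodes lymphotoxin beta, did not follow the group, at 86.5 against 76.6 CPM (0.18, −0.10 to 0.45).

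The genes that differed most included several outside these lists. They were taken as the 15 highest and 15 lowest log2 ratios among genes seen in at least 25% of the barcodes of the group with the higher level, leaving out the genes of the rule and the V, D and J segments. Arpp21, a phosphoprotein regulated by cyclic AMP, came first at 69.8 CPM against 1.20, a log2 ratio of 5.86 (5.09 to 6.72). It had a UMI in 42.4% of members and in 0.566% of other B barcodes. Myl10, a myosin light chain, was at 181 against 3.30 CPM (5.78). The thromboxane receptor Tbxa2r, the factor Maf and the growth factor receptor Gfra2 had ratios of 3.76, 2.91 and 2.87. Maf was at 160 CPM against 21.4 and was seen in 63.9% of members. At the other end stood Hvcn1, a proton channel of B cells (−3.12), Scd1, a fatty acid desaturase (−3.47), and Il21r, a cytokine receptor (−2.91).

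**Figure D2:**
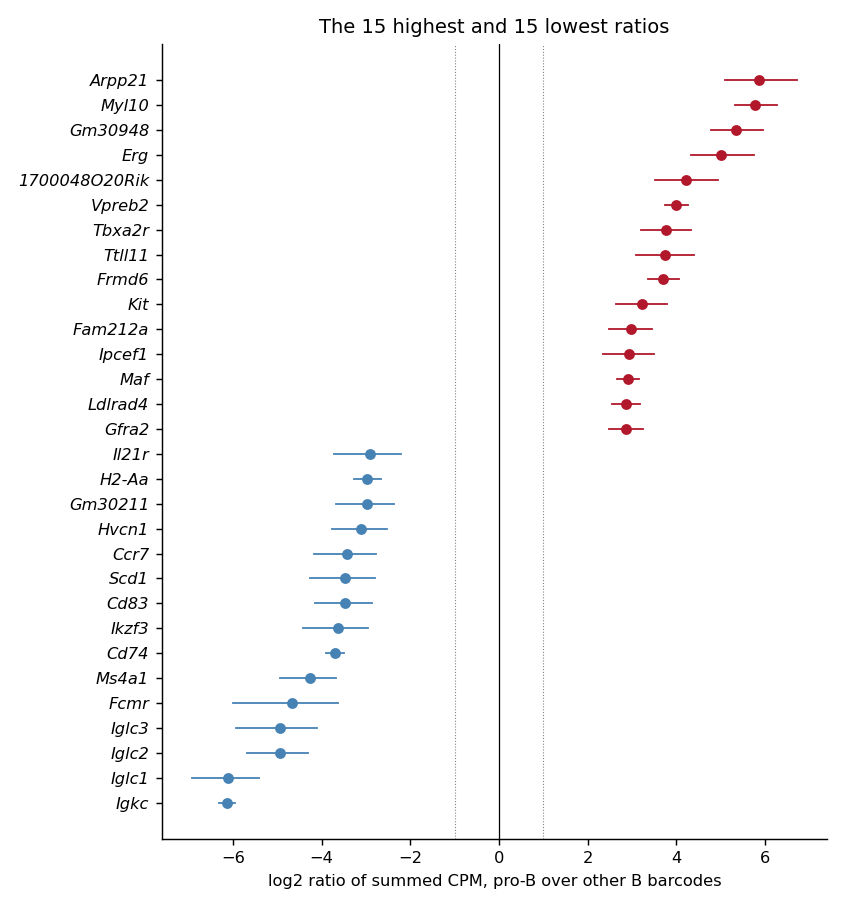
The 15 highest (red) and 15 lowest (blue) log2 ratios of pro-B over other B barcodes, with bars for the 95% counting interval and dotted lines at 2-fold. Arpp21 at 5.86 and Igkc at −6.13 are the extremes.

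A pair of long non-coding RNAs among them lie in the immunoglobulin loci and differed in opposite directions. Gm30948 (chr12:115262684-115287908, plus strand) lies among the heavy chain V segments. It overlaps the pseudogene Ighv1-57 on the opposite strand. It was at 94.2 CPM (78.96 to 111) against 2.32, a log2 ratio of 5.34 (4.77 to 5.95), and had a UMI in 70 members (48.6%) and in 0.697% of other B barcodes. Gm30211 lies on chromosome 6 and overlaps the J segments and constant region of the kappa gene on the same strand, so its reads cannot be told apart from those of Igkc with certainty. It was at 14.6 CPM against 116 (−2.98, −3.68 to −2.36). No source used here states whether strand was used in counting, so reads of Gm30948 and of its antisense neighbour cannot be told apart either.

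By the gate, the nearest comparison in these data is with the 146 barcodes of the Dntt 0 surrogate light chain group, a comparison chosen after earlier values were seen. It was deeper than the members and cycling transcripts were more frequent in it, as given below, and both are set beside the ratios. Of 6934 genes, 556 (8.02%) were higher in pro-B and 141 (2.03%) lower, with a median log2 ratio of 0.08. Markers of other cells moved with this comparison too. The neutrophil markers summed to 691 against 1695 CPM, with 4 of 9 lower and 0 higher. The erythroid markers summed to 16669 against 14436 (2 of 8 higher, 0 lower) and the skeletal markers to 982 against 1188 (2 of 6 higher, 1 lower). The part of these markers in the ratios was not tested.

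The recombinase genes were higher in that comparison. Of 10 recombination genes 2 were higher (background 8.02%), Rag1 at 235 against 21.4 CPM (3.46, 3.06 to 3.88) and Rag2 at 73.2 against 19.9 (1.88, 1.40 to 2.38). A Rag1 UMI was seen in 75.7% of pro-B and 19.2% of the Dntt 0 barcodes although these were deeper, and in 42.0% and 9.10% at equal depth. Among 25 transcription factors 5 were higher against the same background, namely Erg (4.95), Etv6 (1.58), Lef1 (1.19), Foxo1 (1.16) and Runx1 (1.02), and Ikzf3 (−2.50) and Spi1 (−1.32) were lower. Kit was at 37.0 against 5.79 CPM (2.67).

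B receptor signalling genes moved both ways. Of 15 signalling genes, 2 were higher, Blnk (1.12) and Pik3cd, a lipid kinase subunit (1.12), and 5 were lower, against backgrounds of 8.02% and 2.03%. Cd22 was at 5.58 against 51.4 CPM (−3.20, −4.44 to −2.19), Fcgr2b had −1.94, Cd72 −1.78, Blk −1.64 and Ptpn6 −1.62. S1pr1 (2.40), S1pr4 (1.29) and the integrin chain Itgb1 (1.04) were higher among 7 homing genes (background 8.02%) and Ccr7 (−1.91) was lower. Of 14 mature B genes 3 were higher (background 8.02%), Ltb at 86.5 against 5.07 CPM (4.09, 3.29 to 5.01), Cd55 (1.73) and H2-Ob (1.16), and 0 were lower.

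The light chain differed here too, but its size rested on 1 barcode. Igkc was at 164 against 2319 CPM, a log2 ratio of −3.82, and 81.6% of the Igkc UMIs of the Dntt 0 group came from 1 barcode. Without that barcode, which alone held at least 10 Jchain UMIs, the ratio was −1.39. An Igkc UMI was seen in 34.7% of pro-B and 83.6% of Dntt 0 barcodes, and in 17.5% and 50.4% at equal depth. Gm30211 at the kappa locus had a ratio of −2.17 and Gm30948 at the heavy chain locus 5.02. Myl4 and Nrgn, a myosin light chain and a calmodulin-binding protein, were at 96.3 against 635 and at 38.4 against 260 CPM (−2.72 and −2.76).

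Because more of the Dntt 0 barcodes carried cycling transcripts, the ratios were also taken among barcodes with a cycling score (65 against 126) and among those without (79 against 20), a split likewise chosen after the values were seen. A ratio is given only where the gene had 50 or more UMIs on that side. Rag1 had a ratio of 4.12 with the score and 0.55 without, and Rag2 had 1.73 and 0.87, so neither was 2-fold without it. Foxo1 went from 1.13 to −0.084, Blnk from 1.03 to 0.42, Pik3cd from 1.02 to 0.027, S1pr1 from 2.24 to 0.74, S1pr4 from 1.09 to 0.95 and Cd72 from −2.21 to −0.41. Each likewise passed 2-fold only with the score, but for Foxo1, Blnk, Pik3cd and S1pr4 the interval on that side reached below 2-fold. For S1pr4 it ran from 0.70 to 1.47 and held the value found without the score. Runx1 (0.74 and 0.79) and Lef1 (0.95 and 0.36) were 2-fold on neither side.

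Myl10 had 3.66 with the score and 3.45 (1.55 to 6.52) without, the latter on 75 against 2 UMIs. Gm30948 had 7.22 (4.68 to 12.5) on 57 against 1 UMI with the score and 1.70 (0.59 to 3.06) without. Etv6 (1.30), Cd55 (1.55), Ikzf3 (−2.65), Spi1 (−1.45), Cd22 (−2.95), Fcgr2b (−2.13), Blk (−1.66), Ptpn6 (−1.41), Ccr7 (−1.50), Gm30211 (−1.81), Myl4 (−2.31) and Nrgn (−2.49) were 2-fold with the score and too shallow to compare without it. Itgb1 (0.95) and H2-Ob (0.048) were not 2-fold with it. Ltb had 1.51 without the score and was too shallow with it, and Erg and Kit were too shallow on both sides. Igkc had −1.40 with the score and −7.94 without it, where the barcode with the high Igkc count falls. Among barcodes without the score the Dntt 0 group is only 20 barcodes. Transcripts of other cells differed on both sides. With the score there were 3 pro-B against 1050 Dntt 0 UMIs of Elane, 6 against 990 of Prtn3 and 7 against 606 of Mpo, all neutrophil markers. Without it there were 19 against 896 UMIs of Col2a1, a cartilage collagen, and 154 against 738 of Sparc. The globin Hba-a2 had 2133 against 28 there, with 50.6% of the pro-B UMIs in 1 barcode. Their part in these ratios was not tested, and the difference between both sides was not tested.

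**Figure D3:**
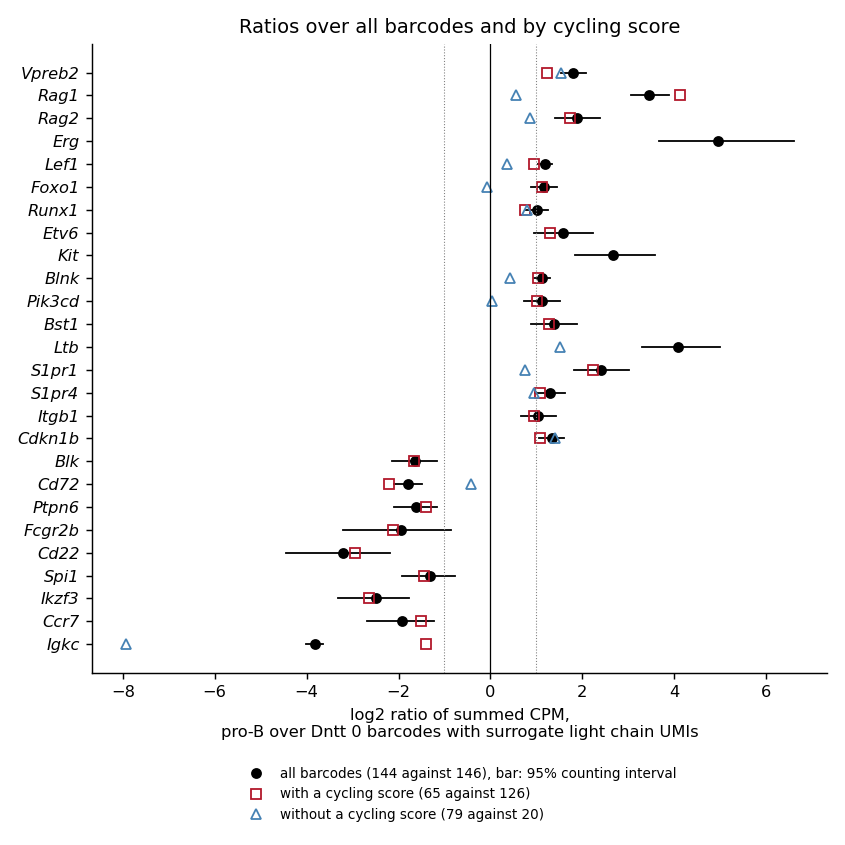
Log2 ratios of pro-B over Dntt 0 surrogate light chain barcodes for 26 genes over all barcodes (black, with 95% counting intervals), among barcodes with a cycling score (red squares) and without (blue triangles). Split values are drawn for genes with 50 or more UMIs on that side. Rag1 stands at 4.12 with and 0.55 without the score, Cd72 at −2.21 and −0.41.

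Cycling was scored by a UMI of Top2a, Mki67 or Birc5, with 2 or more of these 3 required, genes of DNA untangling and chromosome division. Of the members, 65 (45.1%, 36.8% to 53.6%) had the score, against 22.1% (20.4% to 23.8%) of other B, 86.3% (79.6% to 91.4%) of Dntt 0 surrogate light chain, 7.32% (4.70% to 10.8%) of mature and 31.7% of neutrophil barcodes. Thinned to 2000 UMIs the shares were 34.0% (26.5% to 42.7%), 17.9%, 62.5% (54.3% to 70.6%), 5.41% and 18.9%. The neutrophil gate does not select against dividing cells, so its share is no measure of free RNA here, and what free RNA adds to the score was not tested. The place of the pro-B barcodes between the Dntt 0 and the mature group was the same at both depths. The order against other B barcodes as a whole turned with the gene floor, to 55.7% against 60.4% at 1600 genes.

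**Figure D4:**
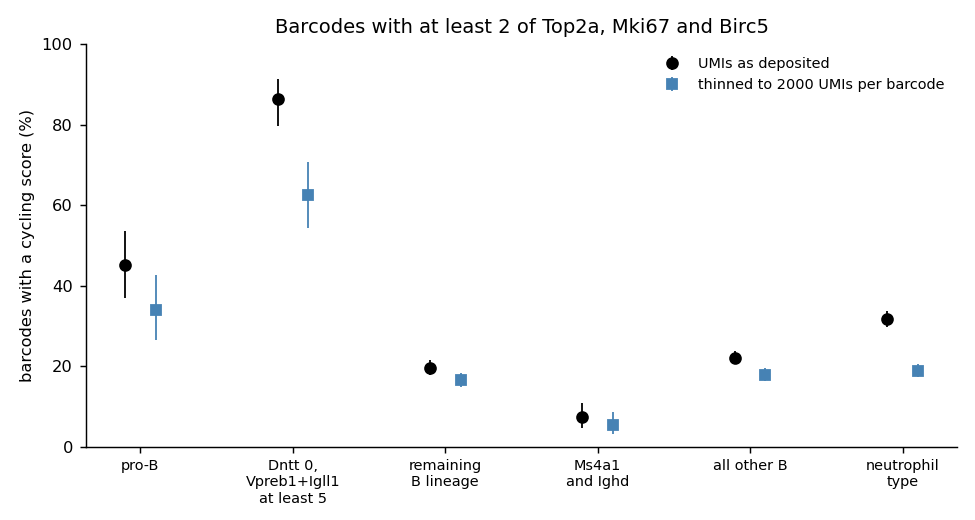
Share of barcodes with a cycling score (percent) in 6 groups, as deposited (black) and thinned to 2000 UMIs (blue), with 95% counting intervals. Pro-B barcodes, at 45.1% and 34.0%, lie between the Dntt 0 surrogate light chain barcodes at 86.3% and 62.5% and the mature barcodes at 7.32% and 5.41%.

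Single genes of DNA replication and division were compared as well. Of 20 S phase genes, 1 was higher than in other B barcodes, Tyms, the thymidylate synthase, at 168 against 73.6 CPM (1.19), no longer 2-fold at the gene floor of 1600, against a background of 5.87%. All 20 had ratios above 0, with a median of 0.48. Of 20 G2 and M phase genes none was 2-fold different and the median was 0.36. Against the Dntt 0 group the medians were −0.43 and −0.46, with 18 of the 20 S phase and all 20 G2 and M phase ratios below 0. Against the mature group 16 of 20 and 16 of 19 were higher, above a background of 12.9%. Cdk6, a G1 kinase, was at 200 CPM, against 77.6 in other B and 211 in Dntt 0 barcodes, and Ccnd3, the D cyclin that pre-B cells need, at 250 against 173 and 392. The Cdk6 difference from other B barcodes was no longer 2-fold at the gene floor of 1600. Cdkn1b, the p27 inhibitor, was at 182 against 72.4 in the Dntt 0 group (1.33). Btg1, an antiproliferative gene, was at 400 CPM against 1158 in other B barcodes (−1.53).

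The members with and without the score differed in more than division genes, a comparison also made after the values were seen. They differed in depth, with medians of 13995 and 4629 UMIs. Of 4050 genes, 619 (15.3%) were higher and 375 (9.26%) lower with the score. Of genes that could be compared, 19 of 19 S phase and 17 of 17 G2 and M phase genes were higher, 3 of the latter being the genes of the score. Markers of other cells differed too. The 8 erythroid markers summed to 9724 CPM with the score and 33280 without, with 4 globin genes lower and Car2 and Slc4a1 among those higher. Of the Hba-a2 UMIs without the score, 50.6% came from 1 barcode. Hba-a2 was seen in 75.9% of members without the score and 93.8% of those with it. The 12 neutrophil markers summed to 510 and 1124 CPM, with S100a9 and Camp lower. Their part in the differences below was not tested. As shares of all UMIs, several genes named above were lower with the score (backgrounds 15.3% higher and 9.26% lower). Of 21 transcription factors 0 were higher and 4 lower, and of 5 recombination genes 2 were higher and 2 lower. Of 10 mature B genes 0 were higher and 7 lower, Ltb among them. Rag1 was at 164 against 405 CPM (−1.30), Erg at 36.6 against 102 (−1.47), Vpreb2 at 151 against 445 (−1.56), Maf at 84.1 against 343 (−2.03) and Ltb at 35.6 against 208 (−2.55). Dntt, of which the rule required a UMI in every member, was at 622 against 741 CPM, given as a description. Myl10 had a ratio of 0.04 (−0.36 to 0.44) and Cdk6 of 0.04, and Ccnd3 was higher at 290 against 156 (0.89). Myl4, so high in the Dntt 0 group, was at 134 against 7.10 CPM.

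Counted per barcode and not as CPM, the picture was less uniform. A member with the score held on average 2.55 Rag1 UMIs and one without 2.16. For Erg the means were 0.569 and 0.544, for Vpreb2 2.35 and 2.38, for Lef1 6.52 and 4.37 and for Dntt 9.68 and 3.96. Maf at 1.31 against 1.84 and Ltb at 0.554 against 1.11 were lower on this scale too. Which scale describes the cell cannot be settled here, since a larger cell and a more deeply captured one cannot be told apart.

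**Figure D5:**
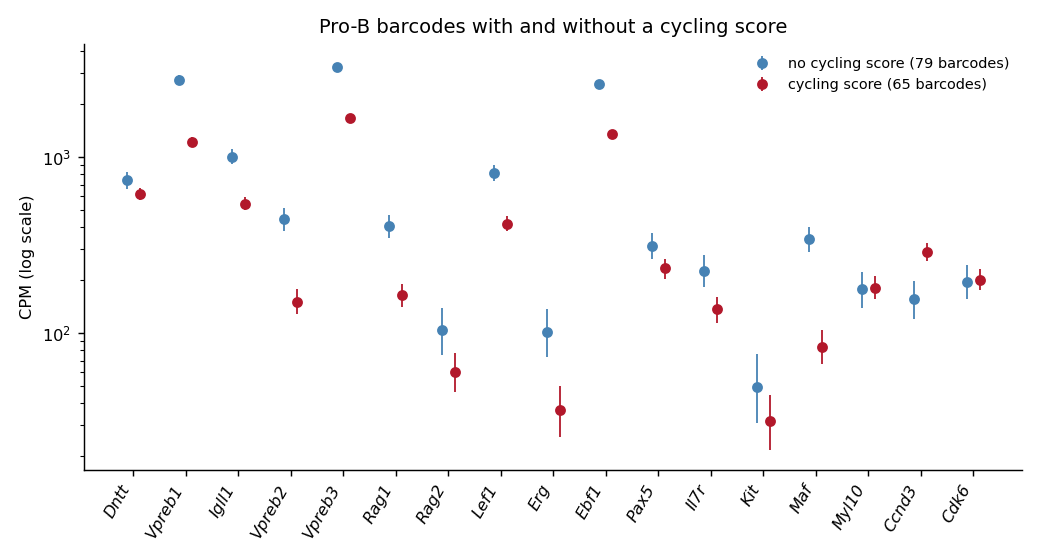
Levels of 17 genes (CPM, log axis) in the 79 pro-B barcodes without (blue) and the 65 with a cycling score (red), with 95% counting intervals. Maf falls from 343 to 84.1 and Rag1 from 405 to 164, Myl10 is level at 177 and 182, and Ccnd3 rises from 156 to 290.

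Set against the 314 mature barcodes, 801 of 6206 genes (12.9%) were higher in pro-B and 555 (8.94%) lower. Markers of other cells moved here too. The neutrophil markers summed to 691 against 1819 CPM (6 of 9 lower) and the monocyte and macrophage markers to 69.1 against 309 (2 of 3). The erythroid markers summed to 16669 against 28665 (1 of 8) and the skeletal markers to 982 against 1669 (3 of 6). On these lists 0 were higher, and their part in the ratios was not tested. The mature group was chosen by Ms4a1 and Ighd, which are therefore descriptions. Of the 18 mature B genes other than Ms4a1, 16 were lower, with a median of −3.52, and of 11 recombination genes 6 were higher and 1 was lower. Rag1 was at 235 against 47.0 CPM, Il7r at 163 against 44.3 and Vpreb3 at 2130 against 516. No mature barcode had a UMI of Erg, Arpp21, Myl10 or Gm30948. Against a floor of 3 UMIs these were at least 26.9-fold, 33.6-fold, 87.1-fold and 45.4-fold higher in pro-B barcodes.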

How the data were processed

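Single cells of P56 mouse tibia were profiled on the 10x platform. The deposited values are raw counts of UMIs for each gene in each barcode, which the authors made in Cell Ranger 3.1.0 by alignment to mm10 and to exogenous sequences. The submitters' processing notes also name Seurat 3. No source used here names the gene annotation they counted on. Counts were used as deposited, in 1 matrix of 31053 genes. Coordinates are those of GENCODE M21 on GRCm38, which holds 30934 of the gene identifiers.

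The gate, the comparison groups and 21 gene lists (255 genes, 254 in the files) were chosen with earlier results of these data known. Every listed gene could be named with its value. Some listed genes are not reported here. The 15 highest and 15 lowest log2 ratios were named as well, among genes that reached 50 UMIs over both groups and had a UMI in at least 25% of the barcodes of the higher group. The Dntt 0 surrogate light chain group, its division by cycling score, the comparison within the members and the alternatives on Jchain and erythroid UMIs were added after the values were seen. Genes named only from a comparison with the Dntt 0 group were chosen after their values were seen.

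UMIs were summed per group and scaled to 1000000 UMIs (CPM). Levels have exact Poisson intervals, shares exact Clopper-Pearson intervals and ratios exact conditional intervals, at 95%. A gene without a UMI was set to a floor of 3 UMIs per group, and a share of 0 was given the limit of 3 barcodes in the group. For shares at equal depth, the expected share was computed for each barcode drawn down to 2000 UMIs without replacement, leaving out 1 pro-B and 16 other B barcodes that were shallower. Scrublet, run from scanpy 1.11.5 with 6% doublets assumed, marked 3.30% of 7989 barcodes as doublets. These were kept, since no removal of doublets is described. TMM factors from edgeR 4.0.16 in R 4.3.3 served as another scaling. The calculations ran in Python 3.11.15 with numpy 2.4.6, pandas 2.3.3 and scipy 1.17.1, and were tested on simulated data. No barcode was listed more than once.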

Additional observations from a re-analysis of the deposited data

Results flagged for a closer look

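WPRE, the viral element that ends the tdTomato reporter transcript, had 55 UMIs in 39 of the 144 pro-B barcodes (27.1%, 20.02% to 35.1%), with at most 4 in a barcode. It was flagged because it lies outside the genes compared above and exceeds the limit that a count of 0 allows. The share was 20.3% in other B barcodes and 33.6% in the neutrophil type, at median depths of 7839.5, 3325 and 7214 UMIs, so the pro-B share lay between them. Single barcodes held up to 67 WPRE UMIs among other B and up to 25 in the neutrophil type, and the part of free RNA was not tested. The study called cells labelled above a WPRE cutoff that was not applied here, so these are shares with a UMI and not labelled shares. The reporter sequence itself had 1 UMI in the pro-B barcodes, and Cre and GFP had none, where 0 of 144 allows a share with a UMI of up to 2.08%.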

How the results depend on the processing

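No paired analysis was possible because the barcodes carry no sample or replicate number and form 1 pool, and for the same reason no replicate could be left out. The number of pro-B barcodes ranged from 115 to 144 over the settings. The 583 genes higher than in other B barcodes became 360 at a floor of 1600 genes, 878 against other B barcodes without Vpreb1 and Igll1, 1047 when each barcode weighed the same, 1855 without the 50-UMI filter and 201 at 200 UMIs, and the 916 lower genes became 475 at 200 UMIs. Of the genes called, 38.9% were higher, and 31.8% at the floor of 1600 genes, 61.8% without the filter and 29.7% at 200 UMIs. The cycling share of pro-B barcodes was 55.7% at 1600 genes and 34.0% at equal depth, and that of other B barcodes 60.4% and 17.9%, with 24.0% at S100a8 under 10 per 10000, 14.2% without Vpreb1 and Igll1 and 24.7% when scored by 3 genes of the G2/M list. Against the Dntt 0 group, the 556 higher and 141 lower genes became 302 higher among cycling barcodes, 108 and 51 among the others, and 351 lower with equal weights. Of these, 266 of the 302 and 59 of the 108 were also among the 556. Against mature barcodes, the 801 and 555 became 414 higher at 1600 genes, 273 and 229 among cycling and 375 higher among other barcodes. For the fall at 200 UMIs and without the cycling score fewer genes could be compared, and for the rest the cause was not tested.

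Of 117 named genes that were 2-fold against other B barcodes, 18 of 116 were not at the floor of 1600 genes (Bach2, Cd52, Cd55, Cdk6, Cox6a2, Cr2, Dclre1c, Gfi1, Ighd, Ighm, Il2rg, Ltf, Lyn, Ptprc, Spn, Tyms, Xrcc5 and Zfp318), 14 not with equal weights, 10 not with at least 2 Dntt UMIs, 7 not without barcodes rich in erythroid markers and 2 not with TMM factors. Among them the one direction that turned was that of Jchain, at 0.026 without the Jchain barcodes. Against the Dntt 0 group, and counting only genes that were 2-fold there, directions turned for Jchain (1.94 without its barcode, 0.063 among cycling barcodes), Slc4a1 (−0.031 without called doublets), Bglap (1.16) and Col1a1 (−0.62) among cycling barcodes, and, among barcodes without the score, Cd9 (−0.094), Elane (0.54), Foxo1 (−0.084), Hvcn1 (0.39), Ltf (0.22) and Ly6d (−0.65). Those of Bglap, Col1a1, Elane, Hvcn1 and Ltf, and that of Jchain among cycling barcodes, rest on 15 or fewer UMIs. Genes under 50 UMIs in both groups together, such as Flt3 against the Dntt 0 group, were too shallow to compare.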

Other observations

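Dntt was also found outside the gate. Of 287 barcodes with a Dntt UMI that passed the gene and mitochondrial limits, 143 were not members, and 106 of these had no Cd79a UMI. A few genes were compared between these 106 and the members. Siglech, a receptor of plasmacytoid dendritic cells, had a UMI in 71.7% of them (62.1% to 80.0%) against 2 of 144 members, and Flt3 in 61.3% (51.4% to 70.6%) against 9 of 144. Cd34, a progenitor antigen, was seen in 20.8% of them and in 2 members, whereas Kit was seen in 15.1% (8.88% to 23.4%) and in 25.7% of members, intervals that overlap. Vpreb1 was seen in 5 of the 106, Rag1 in 5 and Cd79b in 11, against all 144, 109 and 143 of the members. The 106 barcodes were chosen after the values were seen, and their median depth was 6830.5 UMIs.

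The surrogate light chain genes were not captured in the same ratio in every group. For each Igll1 UMI there were 2.47 Vpreb1 UMIs in pro-B barcodes, 1.87 in the Dntt 0 surrogate light chain group and 1.82 in all other B barcodes. All these groups were chosen or described by Vpreb1 and Igll1, and the ratios are given as values only.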
